A study of Mus musculus with 9 samples.

Results

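Selenoproteins were examined in lung fibroblasts of mice at an early stage of metastasis, after doxorubicin (DOX, n = 5) or PBS (n = 4). The genes described are 7 selenoprotein genes, Selenop, Gpx1, Gpx3, Gpx4, Selenow, Selenom and Txnrd1, and Ccdc152, a coiled-coil gene whose last exon lies over the 3′ end of Selenop on the opposite strand. These 8 genes were taken by name from the 55302 gene symbols of the tables, and the 7 selenoproteins are part of the 24 mouse selenoprotein genes listed here. They were chosen by name after their read levels and their DOX and PBS values in these libraries had been seen, the high level of Ccdc152 among them, so both are given as a description.

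The DOX mice received 2 doses of 5 mg/kg doxorubicin, an anthracycline that damages DNA, 5 days apart, with lungs collected 24 h after the second of them. The PBS mice received the vehicle alone, which the labels also write as saline. All mice had carried a mammary fat pad tumor that was resected 2 weeks after injection, and treatment began 4 days after resection. Methods give the animals as 8-week-old female mice, either BALB/c with 4T1 cells or C57BL/6 with EO771 cells, and the labels do not say which of these models the libraries come from. Cells were sorted as CD45-, EpCAM- and PDGFRα+ (CD31- too in Methods). Each library is labelled as a biological replicate, and the p-values below take these libraries as their units.

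Selenoproteins carry selenocysteine, an amino acid that is read from a UGA codon, elsewhere a stop signal, when the 3′ untranslated region of the messenger RNA (UTR) holds a selenocysteine insertion element. Glutathione peroxidases and thioredoxin reductases use it to reduce peroxides and oxidized thioredoxin. Selenoprotein P (Selenop) is secreted, mainly by the liver, and carries selenium to other tissues.

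The selenocysteine codons of the 7 selenoproteins are shown because they define the family and set Selenop apart within it. Each line gives the codon in capitals (as TGA in DNA letters) with up to 12 coding bases on each side, read 5′ to 3′ from GENCODE M21 transcripts on mm10.
Gpx1 (chromosome 9, plus strand): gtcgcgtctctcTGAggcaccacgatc
Gpx3 (chromosome 11, plus strand): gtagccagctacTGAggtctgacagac
Gpx4 (chromosome 10, plus strand): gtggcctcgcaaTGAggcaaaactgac
Txnrd1 (chromosome 10, plus strand): cagtctggctgcTGAggttaa
Selenow (chromosome 7, minus strand): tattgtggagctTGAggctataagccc
Selenom (chromosome 11, plus strand): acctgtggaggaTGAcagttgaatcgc
Selenop, the first of its codons (chromosome 15, plus strand): cttcaagccagcTGAtacttgtgtctt

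Selenop had 10 in-frame TGA codons among the 380 codons before its stop codon, and each of the other 6 selenoproteins had 1. The last 5 of these 10 codons fall within the final 90 coding bases of Selenop (mm10 chr15:3279621-3279710, plus strand), shown with those codons in capitals and ending in the stop codon taa.
Selenop coding end: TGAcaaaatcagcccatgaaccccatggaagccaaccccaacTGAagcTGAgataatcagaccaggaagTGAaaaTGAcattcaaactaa
In Txnrd1 the codon was the penultimate one, number 498 of 499, while in Selenow it was number 13 of 88.

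Selenop (ENSMUSG00000064373.12, mm10 chr15:3268547-3280508, plus strand) and Ccdc152 (ENSMUSG00000091119.2, chr15:3280070-3303526, minus strand) are annotated tail to tail. Their exons shared 439 bases, chr15:3280070-3280508, which are the last 439 bases of Selenop and 55.0% of its 798-base 3′ UTR. On the Ccdc152 side they lie in the 680-base last exon, exon 8 of 8, and hold 0 coding bases of Ccdc152. The RefSeq spans of both genes shared 412 bases.

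**Figure D1:**
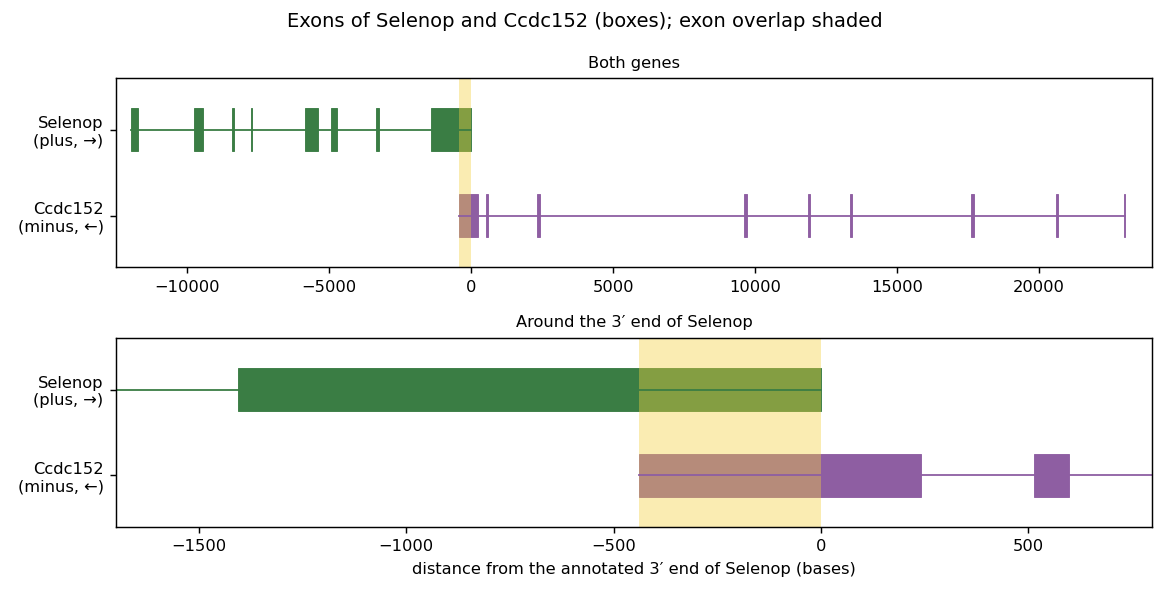
Exons (boxes) of Selenop and Ccdc152 in GENCODE M21, drawn to scale against the distance in bases from the annotated 3′ end of Selenop, for both genes (top) and around that end (bottom). The shaded stretch is the 439 bases that exons of both genes share.

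MARS-seq sequences short tags close to transcript 3′ ends in a strand-specific way. Reads were counted per gene with HTSeq-count, and its strand setting is not given in the sources used here. Without that setting, reads of Selenop and reads of Ccdc152 in the shared stretch cannot be told apart. The setting also bears on the reads counted for every other gene, the low counts below among them, and its effect was not tested. Ccdc152 and Selenop were the only pair, among the 8 genes, with exons overlapping on opposite strands. Beyond the 3′ ends of the others the nearest exon on the opposite strand was Smtn, 172 bases past Selenom, Tnip1, 408 bases past Gpx3, and Sbno2, 553 bases past Gpx4.

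The libraries held 432322 to 1285816 reads in DOX and 497637 to 734114 reads in PBS. The values, called normalized counts here, are read counts over each library's size factor and are not divided by gene length. Collagen gene Col1a1 was at 1169 to 1785 in DOX and 1027 to 2333 in PBS, whereas the sorting gene Pdgfra was at 0.928 to 8.22 in DOX and 0.810 to 11.99 in PBS. PBS replicate 4 stood apart, with 12 granulocyte markers summing to 1099 against 0 to 27.2 in the other 8 libraries, and 12 fibroblast markers to 1983 against 2982 to 4003. Its pan-immune markers summed to 262 against 3.71 to 33.8 in the others, and its red blood cell markers to 81.8 against 0 to 7.17. Of its pan-immune markers Cd74 gave 110, while Ptprc (CD45) was not raised, at 2.43 against 0 to 7.17 in the others. Monocyte and macrophage markers were within the range of the others, at 250 against 205 to 302. Endothelial markers lay above it, at 193 against 64.9 to 152. Epithelial markers (11 genes, with Epcam itself at 0 to 3.73 in DOX and 0 to 5.67 in PBS) differed between the groups too, summing to 43.6, 135, 111, 129.97 and 176 in DOX, against 29.0, 15.8, 30.3 and 440 in PBS. All DOX libraries thus lay above PBS replicates 1 to 3 and below PBS replicate 4, and the part of these cells' RNA in the DOX and PBS differences below was not tested. In DOX replicate 2, the shallowest library, the ribosomal RNA gene CT010467.1 took 35.3% of the values, and the group ranges were 7.91% to 35.3% in DOX and 5.74% to 9.34% in PBS. In bulk samples, fewer cells of a type and less RNA per cell cannot be told apart.

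By the reads assigned to it, Ccdc152 was one of the most abundant genes of these libraries, with far more reads than Selenop in each. With the strand setting unknown, these reads may include some from Selenop transcripts in the shared stretch, which was not tested. Ccdc152 took 2.47% of all reads, between 1.52% and 3.38% per library, and ranked 4th to 8th among all genes. Its normalized counts were 19019, 21629, 17356, 12307 and 10044 in DOX replicates 1 to 5, against 21338, 18869, 14960 and 16325 in PBS replicates 1 to 4. The groups overlapped, with DOX replicate 2 the highest library and DOX replicates 4 and 5 below all PBS libraries.

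Ccdc152 averaged 16071 ± 4789 in DOX (SD, n = 5) and 17873 ± 2821 in PBS (SD, n = 4), a log2 fold change of -0.20 (SE 0.23) that was -0.04 without DOX replicate 5, -0.11 without PBS replicate 1 or DOX replicate 4, and -0.32 without DOX replicate 2. The coefficient of variation was 29.8% in DOX and 15.8% in PBS, while counting error alone gives 0.684% to 0.946% at these read numbers. The spread of Ccdc152 was therefore far larger than the counting of reads gives. Selenop, with 8 to 76 reads per library, had a counting error of 11.5% to 35.4%, the highest in PBS replicate 4. Its coefficient of variation was 35.4% in DOX and 54.2% in PBS. Such counting errors, and the intervals below, leave out every other source of error.

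Selenop was at 25.1, 56.1, 32.7, 26.1 and 38.9 in DOX, against 16.0, 28.5, 29.0 and 6.48 in PBS. Of the 5 DOX libraries 3 lay above every PBS library, and the lowest library of all was PBS replicate 4. The means were 35.8 ± 12.7 in DOX (SD, n = 5) and 20.0 ± 10.8 in PBS (SD, n = 4), a log2 fold change of 0.94 (SE 0.50) on the log2(value + 1) scale. Without PBS replicate 4 the log2 fold change was 0.51, and without PBS replicate 4 and DOX replicate 2 it was 0.34. The part of the granulocyte and ribosomal RNA levels of these libraries in the Selenop values was not tested.

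For each Selenop read there were 759, 385, 531, 471 and 258 Ccdc152 reads in DOX replicates 1 to 5, against 1335, 662, 515 and 2519 in PBS replicates 1 to 4. Over all libraries there were 571 Ccdc152 reads (155981 in total) for each Selenop read (273 in total). Per kilobase of exon the ratio was 1196, but tags close to 3′ ends need not scale with exon length. Selenop made up 0.386% of the reads of the pair in DOX replicate 5 (95% Wilson interval 0.309% to 0.483%), the highest share, and 0.0397% in PBS replicate 4 (0.0201% to 0.0783%), the lowest. These intervals do not overlap, but the libraries were picked as the extremes, and the intervals cover the counting of reads alone. The shares of the groups do overlap, at 0.132% to 0.386% in DOX and 0.0397% to 0.194% in PBS.

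Whether the levels of Ccdc152 and Selenop varied together over libraries was compared directly. Pearson's r of log2(value + 1) over the 9 libraries was -0.08 (exact two-sided permutation p = 0.913) and Spearman's rho was -0.07 (exact p = 0.880), both with a Benjamini-Hochberg adjusted p of 0.913 over the 2 measures. The p of Pearson's r is the smaller tail, doubled, over 362880 pairings. Counting pairings with an r at least as large in absolute value gave 0.835 instead.

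Without the 2 libraries farthest from the median of Selenop, PBS replicate 4 and DOX replicate 2, r was -0.68 over 7 libraries. Its exact permutation p depended on the definition of a two-sided test, at 0.05 for the doubled tail and 0.0859 for the absolute r, and neither is below the threshold of 0.05. Deviations from the group means, over all 9 libraries, gave an r of 0.12. No relation of the pair was therefore shown, and with 9 libraries and few Selenop reads one was hard to detect.

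**Figure D2:**
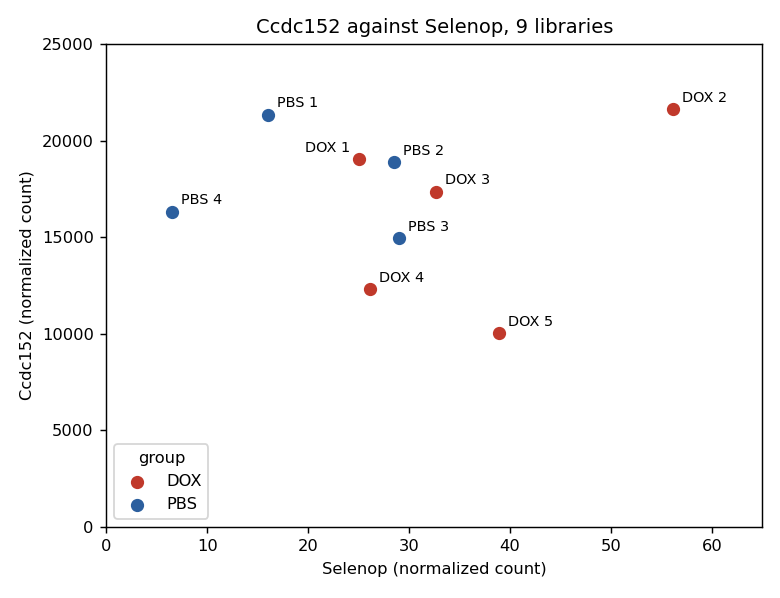
Normalized counts of Ccdc152 (vertical axis) against Selenop (horizontal axis) in the 5 DOX and 4 PBS libraries, 1 point per library. The points form no line (r = -0.08), and PBS replicate 4 and DOX replicate 2 lie at the ends of the Selenop axis.

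Genes whose levels over the 9 libraries were most like these are given by Pearson's r as a description. For Selenop they were Cux2 (r = 0.95), Rpl10a (r = 0.93) and Ctsl (r = 0.91). For Ccdc152 they were Bag6 (r = 0.94), Sec23ip (r = 0.93) and Snapc3 (r = 0.91), none of which is a top gene of Selenop. For Gpx3 they were Apod (r = 0.92), the ribosomal RNA gene CT010467.1 (r = 0.91) and Hdac7 (r = 0.91). These libraries share a depth and a ribosomal RNA share per library, and each r was picked as one of the highest over all tested genes.

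Among the glutathione peroxidases, Gpx3 (ENSMUSG00000018339.11, mm10 chr11:54902453-54910377), the secreted plasma form, took 3078 of the 5128 reads of all 24 selenoproteins. Its normalized counts were 327, 588, 300.3, 330.1 and 382 in DOX, against 188, 235, 309 and 230.1 in PBS. Of the 5 DOX libraries 4 lay above every PBS library, with DOX replicate 3 just below PBS replicate 3, and DOX replicate 2 was the highest. Gpx3 averaged 386 ± 117 in DOX (SD, n = 5) and 241 ± 50.5 in PBS (SD, n = 4), a log2 fold change of 0.66 (SE 0.25). Without DOX replicate 2 the DOX mean was 335 ± 34.3 (SD, n = 4). DOX replicate 2 also held the highest share of the ribosomal RNA gene, whose level correlated with Gpx3, and the part of that gene in the Gpx3 values was not tested.

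Gpx1 (ENSMUSG00000063856.7, chr9:108338903-108340343), the cytosolic glutathione peroxidase, had 115 reads in all. It was at 4.64, 42.6, 12.3, 8.96 and 11.8 in DOX, against 14.0, 6.33, 7.57 and 12.2 in PBS. A single library, DOX replicate 2, was high, and the other 4 DOX libraries lay within or below the PBS range. The log2 fold change was 0.33 (SE 0.68), and -0.10 without DOX replicate 2, so its sign rested on that library.

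Gpx4 (ENSMUSG00000075706.10, chr10:80047166-80056439) reduces lipid peroxides in membranes and so restrains ferroptosis, a cell death driven by iron. It was at 8.35, 3.87, 1.02, 11.95 and 3.07 in DOX, against 5.99, 9.50, 2.52 and 17.0 in PBS. The groups overlapped, the highest library was PBS replicate 4, and only 2 libraries reached 10, so Gpx4 did not enter the test. It averaged 5.65 ± 4.42 in DOX (SD, n = 5) and 8.76 ± 6.20 in PBS (SD, n = 4), with 72 reads in all.

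Txnrd1 (ENSMUSG00000020250.10, chr10:82833951-82897712), the cytosolic thioredoxin reductase, was the scarcest of the 8 genes with 55 reads. It was at 17.6, 0, 1.02, 2.99 and 0 in DOX, against 6.99, 14.8, 6.31 and 4.05 in PBS. Of the 5 DOX libraries 4 lay below every PBS library and DOX replicate 1 above all of them, and the gene did not enter the test. The 2 zeros allow levels of up to 5.81 in DOX replicate 2 and 1.54 in DOX replicate 5, the value of 3 reads. The limit in DOX replicate 2, the shallower of these, lies above the value of PBS replicate 4, and the limit in DOX replicate 5 lies below every PBS value.

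Selenow (ENSMUSG00000041571.9, chr7:15917208-15922402), a small selenoprotein of the thioredoxin-like fold, was at 20.4, 17.4, 48.0, 29.1 and 31.2 in DOX, against 29.0, 21.1, 29.0 and 49.4 in PBS. The groups overlapped over nearly their whole range, with means of 29.2 ± 11.98 in DOX (SD, n = 5) and 32.1 ± 12.1 in PBS (SD, n = 4). The log2 fold change of -0.15 (SE 0.44) changed sign without DOX replicate 2 or PBS replicate 4.

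Selenom (ENSMUSG00000075702.9, chr11:3514684-3517351), a selenoprotein of the endoplasmic reticulum, was at 13.0, 27.1, 65.4, 57.5 and 15.4 in DOX, against 34.0, 43.3, 30.3 and 35.6 in PBS. Its means were nearly the same, 35.7 ± 24.3 in DOX (SD, n = 5) and 35.8 ± 5.47 in PBS (SD, n = 4). The DOX libraries lay on both sides of the PBS range, with 2 above it and 3 below it. The log2 fold change was -0.28 (SE 0.50), and 0.0021 without DOX replicate 1.

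**Figure D3:**
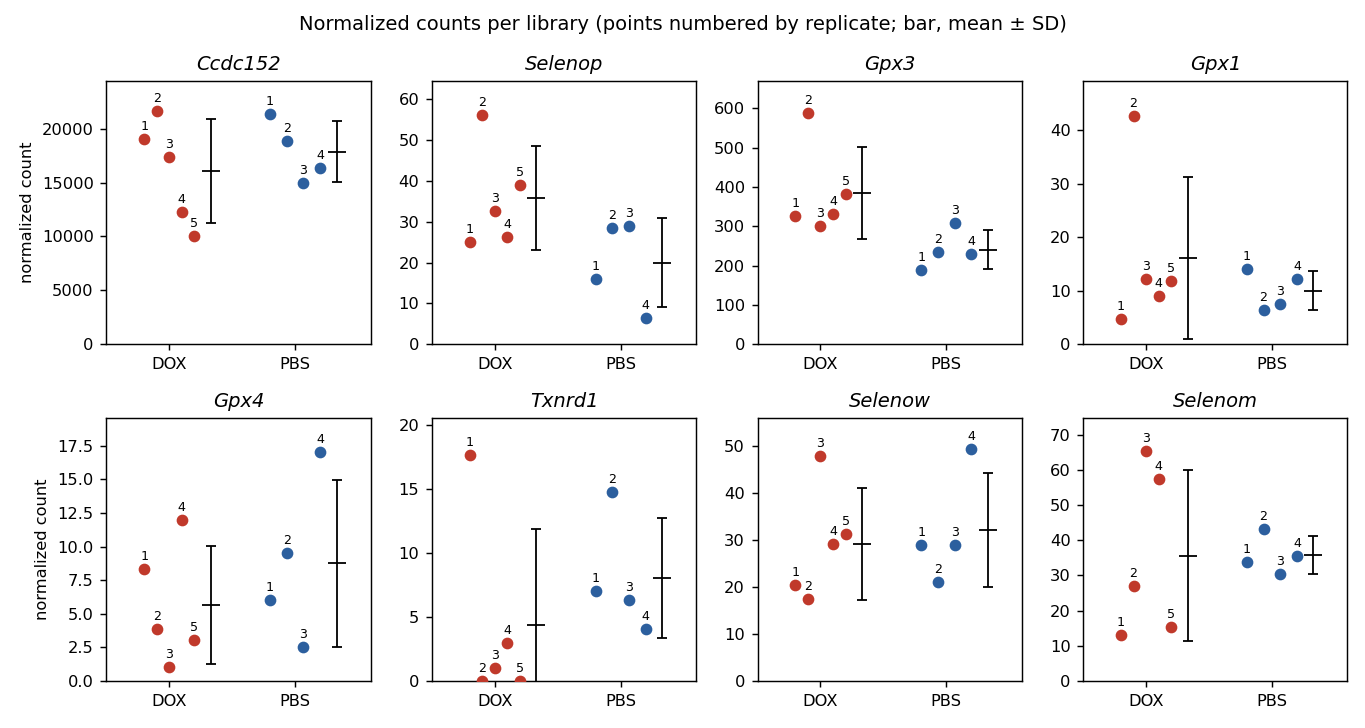
Normalized counts (vertical axes, from 0) of the 8 genes in each DOX (red, left) and PBS (blue, right) library, numbered by replicate, with the group mean and SD as a black bar. Ccdc152 lies at 10044 or higher in all 9 libraries and Selenop at 56.1 or lower, and the lower SD bar of Txnrd1 in DOX is drawn only down to 0.

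In limma's test over 2604 genes (Benjamini-Hochberg adjustment, threshold 0.05), 0 of the 6 tested genes of this set passed, beside 0% of all tested genes. The lowest adjusted p was 0.761 for Gpx3, and 0.647 over all genes. At an unadjusted limma p under 0.05 there was 1 of the 6, Gpx3, higher in DOX, beside 3.03% of all tested genes in that direction, 3.19% lower in DOX and 6.22% in either. This count fell to 0 without DOX replicate 2 or without PBS replicate 1, with an unadjusted limma p for Gpx3 of 0.0549 and 0.0691. It was also 0 without both DOX replicate 2 and PBS replicate 4 (unadjusted limma p 0.0762). Without any other single library Gpx3 stayed below 0.05, at an unadjusted limma p of 0.0122 to 0.0400. Selenop also fell below 0.05 without PBS replicate 2 (unadjusted limma p 0.0489) or PBS replicate 3 (0.0462). None of the 8 genes had every DOX library above or below every PBS library, beside 1.27% above and 1.38% below over all tested genes. Over all genes, the count at an unadjusted p under 0.05 was 162 by limma, 148 by edgeR, 173 by DESeq2 and 160 by limma-voom, each with 0 genes after adjustment.

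Of the 24 selenoprotein genes, 7 were tested, 14 were above 0 but too low, and 3 (Dio1, Gpx2 and Selenov) were at 0 in every library. Together they took 0.0814% of all reads. Of the 7 tested, 5 had a higher and 2 a lower fitted mean in DOX, beside 49.4% higher over all tested genes. Their median log2 fold change was 0.23 beside -0.01 over all tested genes, and 0 passed. That median was not stable, at 0.02 by limma-voom, 0.07 without DOX replicate 2 and 0.08 without PBS replicate 1. Over all 21 selenoproteins above 0, with no filter, 10 had a higher fitted mean in DOX and the median was -0.15. The tested selenoproteins outside the set were Sephs2 and Selenoo, a mitochondrial enzyme that transfers AMP to proteins, which is named here after its values were seen.

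Selenoo was at 23.2, 17.4, 34.7, 114 and 35.9 in DOX, against 22.0, 51.7, 23.98 and 30.8 in PBS. The groups overlapped, and DOX replicate 4 stood above all other libraries. Selenoo, like Selenop, has a gene over its 3′ end on the opposite strand, Tubgcp6, a gene of the gamma-tubulin complex, which shares its last 510 bases. Tubgcp6 averaged 284 ± 42.5 in DOX (SD, n = 5) and 226 ± 44.4 in PBS (SD, n = 4), above Selenoo at 45.1 ± 39.4 in DOX (SD, n = 5) and 32.1 ± 13.6 in PBS (SD, n = 4). These levels are per gene and not per length, and Tubgcp6 was also named after its values were seen.

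Genes that make and insert selenocysteine were mostly too low to test, with 4 of 13 tested and 0 passing. All 4 had a higher fitted mean in DOX, beside 49.4% of all tested genes. Their median log2 fold change was 0.32, beside -0.01 over all tested genes. Sephs2, 1 of these 4, is also counted among the tested selenoproteins above. Pstk, which phosphorylates the serine on the selenocysteine transfer RNA, averaged 22.7 ± 11.3 in DOX (SD, n = 5) and 18.9 ± 15.5 in PBS (SD, n = 4). Secisbp2l, a relative of the protein that binds the insertion element, averaged 33.1 ± 11.5 in DOX and 26.4 ± 12.3 in PBS. Sephs2, which makes the selenium donor and is itself a selenoprotein, averaged 26.4 ± 9.91 in DOX and 24.7 ± 12.9 in PBS. Ncl, the abundant nucleolar protein nucleolin, averaged 12.2 ± 6.77 in DOX and 11.5 ± 11.4 in PBS.

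Of 3 receptors that take up selenoprotein P, only Lrp1 was tested. Lrp1, a large endocytic receptor with many other ligands, was at 232, 242, 150.2, 163 and 102 in DOX, against 114, 97.1, 215 and 122 in PBS. The groups overlapped, with a log2 fold change of 0.38 (limma adjusted p = 0.862). Lrp8 had 3 reads in all, and Lrp2 was at 0 in every library.

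Among relatives of selenoproteins that carry cysteine instead, 1 of 7 was tested, the methionine sulfoxide reductase Msrb3, at 10.3 ± 10.7 in DOX and 11.9 ± 9.84 in PBS. Among thioredoxin and glutathione partners, 2 of 14 were tested. Txnip, which binds and inhibits thioredoxin, averaged 18.7 ± 13.7 in DOX and 9.84 ± 2.54 in PBS, and DOX replicate 2 was its highest library at 42.6. Prdx5, a peroxiredoxin, averaged 9.74 ± 4.61 in DOX and 8.38 ± 6.42 in PBS, and 0 genes of either list passed.

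Around Gpx4, 5 of 10 ferroptosis genes were tested, all with a higher fitted mean in DOX (median log2 fold change 0.23) and 0 passing, beside 49.4% of all tested genes with a higher fitted mean. Aifm2, which suppresses ferroptosis apart from Gpx4, was below the filter and lay the other way; it is named after its values were seen. It was at 3.71, 3.87, 3.06, 3.73 and 6.66 in DOX, against 9.99, 10.6, 10.1 and 9.72 in PBS, so that every DOX library lay below every PBS library. Among the 2604 tested genes, which leave out Aifm2, 1.38% were separated in this direction. The Aifm2 values rest on 67 reads in all, with a log2 fold change of -1.13 (SE 0.72, limma adjusted p = 0.781) when no filter was applied. Fth1, the heavy chain of the iron store ferritin, averaged 61.6 ± 17.3 in DOX and 40.01 ± 13.9 in PBS, a log2 fold change of 0.62 (limma adjusted p = 0.802). Its partner Ftl1 averaged 64.5 ± 24.2 in DOX and 63.8 ± 26.2 in PBS, a log2 fold change of only 0.07. Lpcat3, also tested and named after its values were seen, averaged 35.4 ± 8.01 in DOX and 35.3 ± 8.74 in PBS. The log2 fold change of Lpcat3 was only 0.0071. Slc3a2, a subunit of the cystine transporter, averaged 16.9 ± 8.93 in DOX and 10.6 ± 6.83 in PBS, and Acsl4, which activates the fatty acids that are peroxidized, averaged 24.8 ± 11.5 in DOX and 19.5 ± 4.83 in PBS.

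Targets and regulators of NRF2, the transcription factor that controls many antioxidant genes including Txnrd1, were too low to test, with 0 of 12 tested. The 12 genes summed to 59.4, 7.74, 10.2, 4.48 and 9.22 in DOX, against 34.0, 28.5, 29.0 and 23.5 in PBS. As for Txnrd1, which is among them, 4 DOX libraries lay below every PBS library and DOX replicate 1 above all of them. The 12 genes hold regulators as well as targets, with Keap1, the repressor of NRF2, among them, so its value is part of these sums. Keap1, named after its values were seen, was highest in DOX replicate 1, at 15.8 against 0 to 9.99 in the other 8 libraries. Of the sum of 59.4 in DOX replicate 1, Txnrd1 gave 17.6 and Keap1 15.8. These sums rest on few reads and carry no test.

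**Figure D4:**
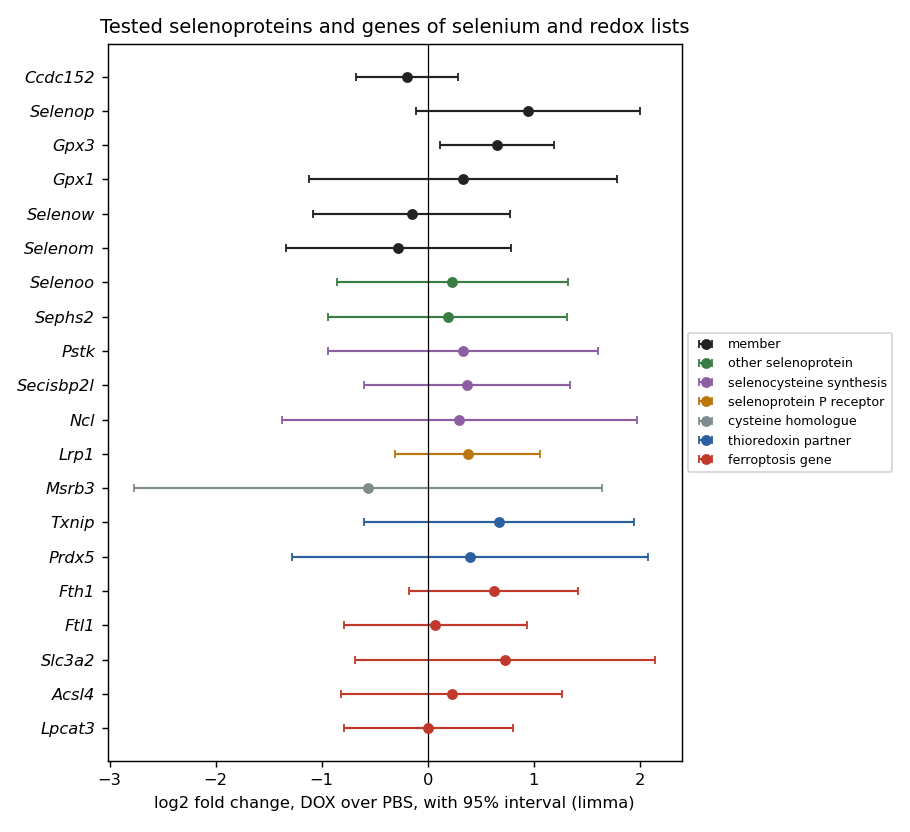
Log2 fold change of DOX over PBS (horizontal axis, limma on log2(value + 1)) with its 95% interval for the tested genes of the set and of the selenium and redox lists (vertical axis), colored by list. Only the interval of Gpx3 lies wholly on one side of 0 (0.12 to 1.19), and 0 of these genes passed after Benjamini-Hochberg adjustment.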

How the data were processed

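Sorted fibroblasts were profiled by MARS-seq in 5 DOX and 4 PBS libraries. The authors mapped reads to mm10 with STAR, counted them with HTSeq and deposited a normalized signal per gene, which is the read count divided by the DESeq2 size factor of the library. Versions and the strand setting were not found in these sources. All deposited values were whole multiples of 1 step per library, to a tolerance of 1e-06. In PBS replicate 1 the step was 0.999, so close to 1 that wholeness alone says little there, but it matched the DESeq2 size factor as in the others. Repeated symbols were summed. Groups were compared on log2(value + 1) by limma 3.58.1 in R 4.3.3, with its mean-variance trend, for genes that reached 10 in 4 or more libraries. The threshold was an adjusted p of 0.05 (Benjamini-Hochberg). The pseudocount shrinks fold changes of low genes. The recovered reads were also tested by edgeR 4.0.16, limma-voom and DESeq2 1.42.0. Coordinates, strands and sequences came from GENCODE M21 on mm10, and RefSeq spans from GRCm38.p6. The genes and lists were chosen with earlier results of these data known. Named genes were the 8 genes, in each list up to 4 tested genes of lowest p, genes overlapping them, and the 3 genes most like Selenop, Ccdc152 and Gpx3. Alternatives covered the scaling, test, pseudocount, filter, each replicate left out, PBS replicate 4 and DOX replicate 2 left out together, and the replicate number as a block. The fits were tested on simulated counts. Permutation tests were exact (SciPy 1.17.1). Their two-sided p was first computed over absolute r and then changed to SciPy's doubled tail after the results were seen. Both are given for Pearson's r.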

Additional observations from a re-analysis of the deposited data

Results flagged for a closer look

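Single libraries stood far from the others of their group in 6 of 48 groups of values checked by Dixon's test (12.5%). The nominal rate of that test, about 1 in 20, holds for normally distributed values, so it is no measure of chance for these counts. The values checked include those of Selenoo and Tubgcp6, which were named after their values were seen. Of the 6, 3 were in DOX replicate 2. Gpx1 was at 42.6 there, against 4.64 to 12.3 in the other DOX libraries, Gpx3 at 588 against 300.3 to 382, and Txnip at 42.6 against 8.96 to 17.4. Txnrd1 was at 17.6 in DOX replicate 1, against 0 to 2.99 in the other DOX libraries. Selenoo was at 114 in DOX replicate 4, against 17.4 to 35.9 in the other DOX libraries. Pstk was at 42.0 in PBS replicate 1, against 8.84 to 12.7 in the other PBS libraries.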

How the results depend on the processing

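Under 20 alternatives, 0 of the genes tested passed among the 8, and 0 selenoproteins passed. Of the 8, 6 were tested in 17 alternatives, 5 in 2 and all 8 only without a filter. DESeq2 is counted among the 17, though it gave no adjusted p for Gpx1, Selenom, Selenop and Selenow. Over all genes 0 passed except without the filter on low values, where 3 of 17428 did (CT010467.1 and Gm17300 higher, Gm20721 lower in DOX). With each replicate left out in turn, the correlation of Ccdc152 with Selenop ranged from -0.36 to 0.18 (-0.68 without PBS replicate 4 and DOX replicate 2), turning positive without DOX replicate 5 (0.18) and without PBS replicate 1 (0.04). The log2 fold change turned for Gpx1 without DOX replicate 2 (-0.10; up to 0.64 without another replicate), for Selenom without DOX replicate 1 (0.0021; down to -0.56), and for Selenow (down to -0.35) without DOX replicate 2 (0.0058), without PBS replicate 4 (0.07) and without both of these libraries (0.23); the cause was not tested. Gpx3 ranged from 0.48 to 0.78 (adjusted p 0.287 to 0.852 by limma, edgeR or DESeq2), Selenop from 0.34 to 1.18 and Ccdc152 from -0.36 to -0.04. Rescaling to equal library totals moved the median log2 fold change of all tested genes to -0.14, beside -0.01.

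With the replicate number as a block, which leaves out DOX replicate 5, 0 of 2450 genes were called. Deviations of same-numbered libraries correlated at 0.066, 0.037, 0.021 and 0.062, all positive but none over 0.1, so the numbers were not taken to pair the samples. For 3 of the 4 numbers the best PBS partner did carry the same number, a hint from the data and not from the design. Counting error at a normalized count of 10 was 22.6% to 43.99% in DOX and 28.5% to 35.5% in PBS, a limit that bears on Gpx1, Gpx4 and Txnrd1.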
